A study of Homo sapiens with 10 samples.

Results

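Integrins and laminins are the receptors and the ligands of 1 adhesion system, and 38 of the 30357 named genes in the tables belong to them. They were taken by gene symbol: 18 integrin alpha genes, 8 integrin beta genes, 5 laminin alpha genes, 4 laminin beta genes and 3 laminin gamma genes. Bulk RNA was sequenced in 10 libraries of sensory neurons grown from the established line RUES2, a human embryonic stem cell line. All libraries came from the edited line RUES2-Avil:tdT, in which the AVIL gene (advillin, an actin-binding protein of sensory neurons) carries a tdTomato reporter, and all were taken at day 60 in vitro. The groups differed in the differentiation protocol: 4 libraries followed the protocol for nociceptors (pain and itch neurons), 3 that for low-threshold mechanoreceptors (touch neurons) and 3 that for proprioceptors (muscle stretch neurons). The agents used in each protocol and any sorting for the reporter are not given in the sources used here, and the use of 1 cell line limits how far the values describe other lines. The titles call the libraries biological replicates without saying that they were separate differentiations, so a p-value here reflects how far these libraries scatter, and that scatter may be technical.

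Integrins are pairs of an alpha and a beta chain that span the membrane, bind the extracellular matrix outside the cell and couple to actin inside it. Laminins are trimers of an alpha, a beta and a gamma chain and are the main sheet-forming proteins of basement membranes, including the one that Schwann cells lay down around axons. Sensory neurons grow on laminin through integrins, and fibroblasts and Schwann cells are known producers of laminin chains in nerve.

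Each library assigned between 27891186 and 44541262 estimated counts to named genes, a depth at which counting error matters only for the members of few reads. All 6 pan-neuronal markers were detected in every library, at a mean level (log2 CPM, counts scaled to library size) of between 8.83 and 10.79. Markers of other cell types differed widely between libraries of the same protocol. The mean level of 10 fibroblast and mesenchyme markers was 4.39, 4.51, 4.19 and 1.42 across nociceptor libraries 1 to 4. It was -0.34, -0.11 and 3.42 across mechanoreceptor libraries 1 to 3 and 0.18, 3.48 and 0.23 across proprioceptor libraries 1 to 3. Nociceptor library 4 was therefore the low one of its protocol, and mechanoreceptor library 3 and proprioceptor library 2 were the high ones of theirs. Their summed TPM ran from 145 to 3544 in nociceptor, 13.5 to 1102 in mechanoreceptor and 15.2 to 1283 in proprioceptor libraries, with at most 2 of the 10 at 0 in any library. The 7 Schwann and satellite glia markers stood at 7.17, 6.81, 7.41 and 4.51 for nociceptor libraries, 0.89, -0.60 and 6.09 for mechanoreceptor libraries and 2.78, 6.38 and 1.91 for proprioceptor libraries, with none at 0. Values of members below stand in this order of libraries wherever the protocols are not named. Glia markers summed to 379 to 4609, 7.01 to 1667 and 56.4 to 2044 TPM in the 3 protocols. The 6 epithelium markers stood at 2.56, 4.18, 3.73 and 1.67, then 1.57, 2.15 and 2.56, then 2.603, 2.91 and 1.61. The same 3 libraries were thus the low or the high ones of their protocols for the mean level of all 3 lists, so these cell types cannot be told apart as sources. In mechanoreceptor library 3 the epithelium mean was high through CLDN4, at 1.09, 0.747 and 17.0 TPM across the mechanoreceptor libraries. None of the other epithelium markers was highest there, with EPCAM at 22.31, 27.7 and 22.29 TPM. The mean of the pan-neuronal markers ran against these list means, with nociceptor library 4 the highest of its protocol at 9.85. Mechanoreceptor library 3 and proprioceptor library 2 were the lowest of theirs at 9.26 and 9.45. Not every marker followed the mean. Among mesenchyme markers, DCN was highest of its protocol in mechanoreceptor library 1 at 2.92 TPM and proprioceptor library 3 at 5.56 TPM. TWIST1 and PDGFRA were not lowest in nociceptor library 4. Among pan-neuronal markers, TUBB3 was lowest in mechanoreceptor library 1 at 720 TPM and ELAVL4 in proprioceptor library 1 at 51.8 TPM. SNAP25 was highest of its protocol in mechanoreceptor library 3 and proprioceptor library 2, at 449 and 430 TPM. It was at 277 TPM in nociceptor library 4 against 545 TPM in nociceptor library 1. In bulk RNA, fewer cells of a type and less RNA per cell cannot be told apart either.

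Of the 38 genes, 13 reached 1 TPM (a level divided by transcript length, with an equal total in every library) in every library, 15 did so in some libraries and 10 in none. The 13 were 7 integrins and 6 laminins. In the map of the members by library, nearly all of the signal lies in the few top rows of each family. ITGB1 was the highest member in every library except proprioceptor library 1, where ITGAE was higher.

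**Figure D1:**
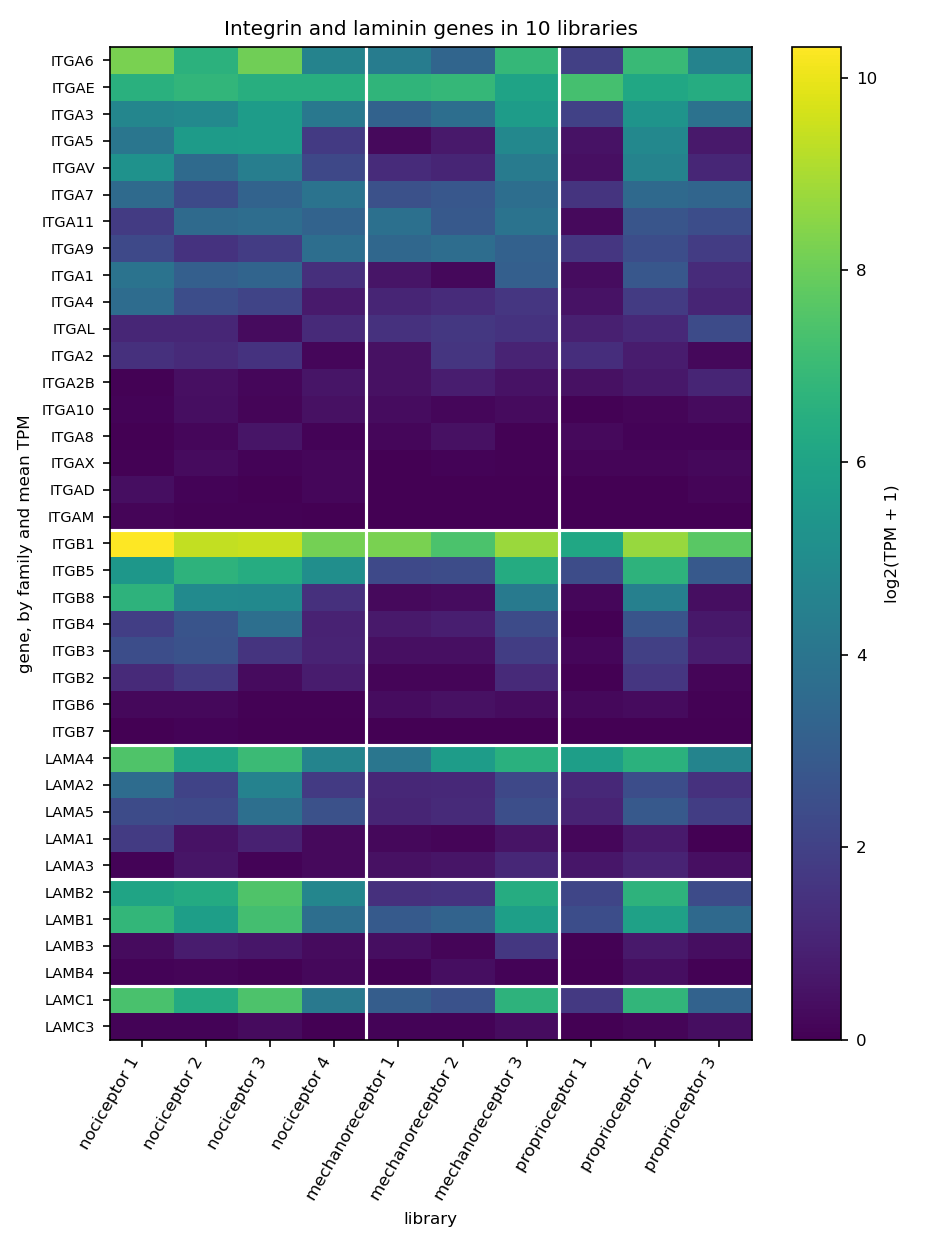
Level of 37 of the 38 integrin and laminin genes (rows, by family and mean TPM) in each of the 10 libraries (columns), as log2(TPM + 1) on the colour scale. ITGB1 is the brightest row except in proprioceptor library 1, ITGAE is even across libraries, and the LAMB2, LAMC1, ITGA5 and ITGB8 rows are dark in mechanoreceptor libraries 1 and 2 and in proprioceptor libraries 1 and 3.

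ITGB1, the beta chain shared by most matrix-binding integrins (chromosome 10, 32900318 to 32958230 of GRCh38.p14), was the main beta chain in every library. It held between 76.1% and 98.2% of the summed TPM of the 8 beta genes. Its TPM was 1275, 663, 708 and 289 across nociceptor libraries 1 to 4, 298, 167 and 433 across mechanoreceptor libraries 1 to 3 and 70.2, 419.9 and 206 across proprioceptor libraries 1 to 3. The mean TPM were 734 ± 407 (SD, n = 4), 299 ± 133 (n = 3) and 232 ± 176 (n = 3), and 3 of the 4 nociceptor libraries lay above every other library. ITGB1-201, a protein-coding transcript, held between 59.4% and 92.8% of the gene's TPM.

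ITGB5, a beta chain that pairs with ITGAV and binds vitronectin, came next among beta chains. Its TPM was 42.5, 101, 83.7 and 33.4 across the nociceptor libraries, 3.81, 4.25 and 79.3 across the mechanoreceptor libraries and 4.21, 99.7 and 6.32 across the proprioceptor libraries. Mechanoreceptor library 3 and proprioceptor library 2 were thus inside the nociceptor range, while the other libraries of those protocols lay below it. ITGB8, another partner of ITGAV, known for releasing active TGF-beta, had the same 5 highest libraries, with a wider span. It was at 101, 29.8, 29.2 and 1.66 TPM, at 0.183, 0.275 and 17.8 TPM and at 0.130, 21.8 and 0.298 TPM. ITGB4, the partner of ITGA6 in epithelial and Schwann cell adhesion, was lower, from 0.0136 TPM in proprioceptor library 1 to 12.7 TPM in nociceptor library 3.

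Among alpha chains the laminin receptors were led by ITGA6 (chromosome 2, 172427336 to 172506459), which pairs with ITGB1 or ITGB4. Its TPM was 303, 97.2, 268 and 23.6 across nociceptor libraries 1 to 4, 19.4, 9.26 and 116 across mechanoreceptor libraries 1 to 3 and 2.86, 125 and 23.5 across proprioceptor libraries 1 to 3. The means were 173 ± 134 (SD, n = 4), 48.4 ± 59.2 (n = 3) and 50.5 ± 65.5 (n = 3) TPM, and the protocols overlapped. The highest and the lowest library differed by 106-fold. ITGA3, a laminin receptor of epithelia and neurons, was at 25.9, 28.4, 50.9 and 16.3 TPM, at 8.51, 12.1 and 51.7 TPM and at 2.98, 39.8 and 13.8 TPM. Its highest value came from mechanoreceptor library 3, just above nociceptor library 3. ITGA7, a laminin receptor best known from skeletal muscle, varied less, at 10.7, 3.97, 8.67 and 14.3 TPM, at 4.97, 5.94 and 12.1 TPM and at 1.90, 10.5 and 9.36 TPM. Its highest library was nociceptor library 4, which was the lowest of its protocol for ITGA6 and ITGA3. Skeletal muscle markers stayed low, with a summed TPM of at most 2.12 over 6 genes and between 1 and 3 of them at 0 in each library.

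The ITGA6 protein has 2 known cytoplasmic tails, alpha6A and alpha6B, which differ by an alternative exon near the 3′ end. The exon has 130 bases, of which the first 105 code for the alpha6A tail. Those bases are shown because they set the 2 tails apart (chr2:172501772-172501876, plus strand, GRCh38, from the GENCODE 29 transcript ITGA6-201, all in lower case).
ITGA6 alternative exon, coding part: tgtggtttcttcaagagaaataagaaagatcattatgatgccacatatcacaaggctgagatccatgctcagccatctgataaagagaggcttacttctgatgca

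ITGA6-201 (1073 residues) includes the exon and ITGA6-202 (1091 residues) skips it. The forms also differ at their ends: ITGA6-201 runs from 172427555 to 172506230 and ITGA6-202 from 172427789 to 172506282. The estimated shares therefore do not rest on the exon alone. ITGA6-201 made up 79.6%, 72.5%, 83.2% and 60.9% of the summed TPM of both across nociceptor libraries 1 to 4. The share was 32.3%, 30.2% and 87.1% across the mechanoreceptor libraries and 53.7%, 85.6% and 50.8% across the proprioceptor libraries. The shares were lowest in mechanoreceptor libraries 1 and 2 and highest in mechanoreceptor library 3, so 1 protocol held both ends. Computed from estimated counts instead, the mean over libraries was 62.9% against 63.6% by TPM. Transcript values are estimates from reads that largely fit both forms, transcripts matched to the annotation held between 53.5% and 100% of the gene's TPM, and 3 antisense genes overlap ITGA6 exons, among them ITGA6-AS1 over 125 bases, with a kit that does not mark strand.

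Of the alpha chains that bind the RGD motif of proteins such as fibronectin and vitronectin, ITGA5 and ITGAV had the highest levels. ITGA5, the fibronectin receptor, was at 15.8, 49.3, 51.2 and 2.39 TPM across the nociceptor libraries, 0.211, 0.615 and 26.8 TPM across the mechanoreceptor libraries and 0.435, 27.2 and 0.618 TPM across the proprioceptor libraries. ITGAV was at 37.2, 10.9, 20.2 and 3.68 TPM, at 1.41, 1.09 and 18.8 TPM and at 0.339, 23.7 and 1.15 TPM. The 5 highest libraries were thus those of ITGB5 and ITGB8, at or above 10.9 TPM for both genes, and the other 5 were at or below 3.68 TPM. ITGA4, which binds fibronectin and VCAM1, was highest in nociceptor library 1. Its values were 11.4, 4.44, 3.39 and 0.656 TPM, then 1.11, 1.39 and 2.09 TPM, then 0.432, 2.45 and 1.07 TPM.

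Of the collagen receptors, ITGA11 and ITGA1 were the highest and their patterns differed. ITGA11, a collagen receptor of fibroblasts, was at 2.44, 10.8, 11.8 and 8.63 TPM across the nociceptor, 13.0, 6.27 and 14.1 TPM across the mechanoreceptor and 0.202, 5.66 and 4.40 TPM across the proprioceptor libraries. ITGA1 was at 14.4, 7.64, 9.05 and 1.62 TPM, at 0.488, 0.162 and 7.71 TPM and at 0.265, 6.03 and 1.41 TPM. Mechanoreceptor library 1 was thus among the highest for ITGA11 and among the lowest for ITGA1. ITGA9, a receptor of tenascin that axons can use to grow, was at 3.79, 1.84, 2.57 and 12.1 TPM, at 10.0, 11.9 and 8.20 TPM and at 2.08, 4.42 and 2.61 TPM. All 3 mechanoreceptor libraries lay above all 3 proprioceptor libraries for this gene, and nociceptor library 4 lay above them all. Transcripts matched to the annotation held 50% of ITGA9 TPM in every library, and the reason for this constant share was not tested.

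**Figure D2:**
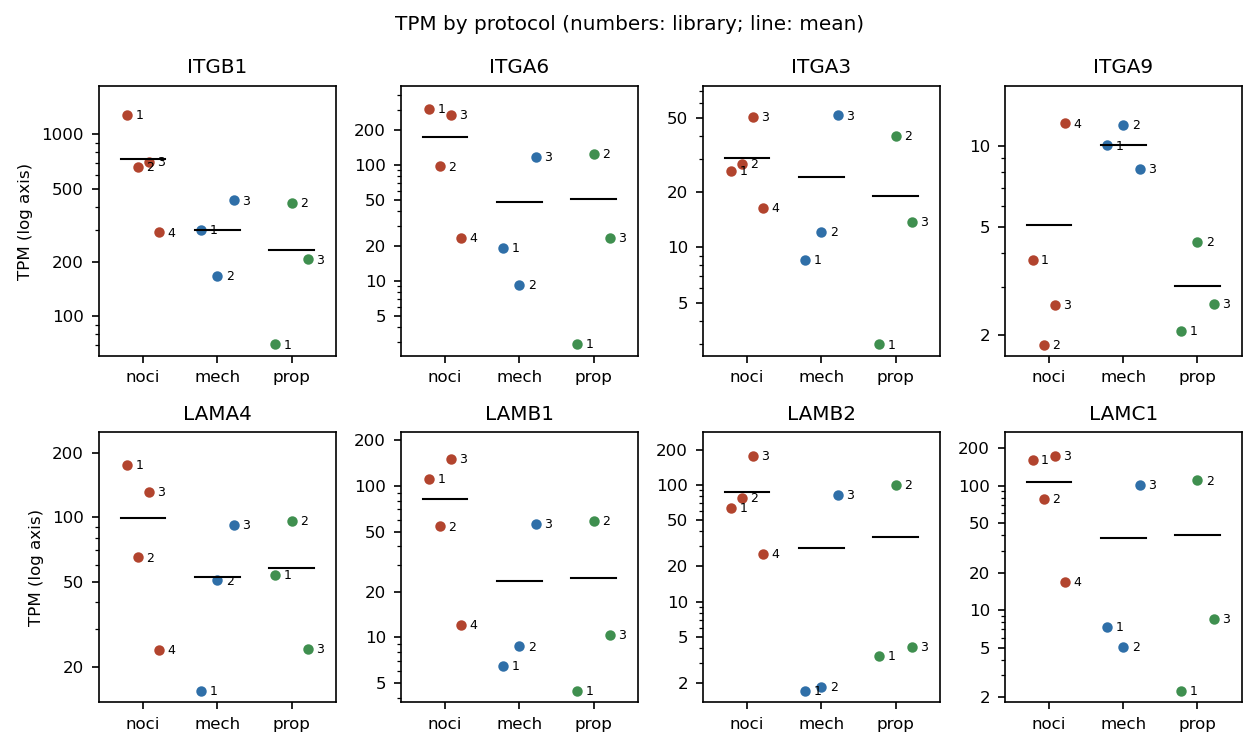
TPM on a log axis for 4 integrin and 4 laminin genes, by protocol (noci, mech and prop for nociceptor, mechanoreceptor and proprioceptor); each point is a library with its number and each line the protocol's mean. Mechanoreceptor library 3 and proprioceptor library 2 sit above the other libraries of their protocols for the 8 genes, except that mechanoreceptor library 3 is the lowest of its protocol for ITGA9.

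Integrins of leukocytes and platelets were low in every library apart from ITGAE. ITGAL, the alpha chain of the lymphocyte integrin LFA-1, lay between 0.244 and 4.07 TPM, ITGB2, the leukocyte beta chain, between 0 and 2.30 TPM, ITGB3 between 0.122 and 4.998 TPM and ITGA2B, its platelet partner, between 0.0557 and 1.10 TPM. ITGAM, ITGAX, ITGAD and ITGB7 stayed under 1 TPM in all libraries, and ITGB7 had 1 count in 1 library and 0 in the others. The 6 leukocyte markers had a summed TPM of between 0.997 and 8.88, with 1 to 3 of them at 0 in each library. The 5 platelet markers summed to at most 0.318 TPM, with 3 to 5 of them at 0.

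ITGAE (chromosome 17, 3714628 to 3801188) encodes the alpha chain that pairs with ITGB7 on T cells in epithelia, and it was the most even of the higher members. Its TPM was 92.6, 110.0, 87.3 and 87.7 across nociceptor libraries 1 to 4, 105, 115 and 62.5 across mechanoreceptor libraries 1 to 3 and 153, 70.3 and 83.4 across proprioceptor libraries 1 to 3. The highest and the lowest library differed by 2.44-fold, and the protocols overlapped. The deposited transcript values put nearly all of it on a transcript without a coding sequence. ITGAE-207, a processed transcript of 672 bases in 4 exons at the 3′ end of the gene (3714628 to 3723837, minus strand), held between 84.9% and 94.5% of the gene's TPM. It shares 579 bases with the coding transcript ITGAE-201 of 3858 bases and 31 exons. The protein-coding ITGAE transcripts together had a mean of 0.00994 TPM and at most 0.0756% of the gene. The gene-level value of ITGAE is therefore a level of non-coding transcripts by these estimates. No exon of another gene in the annotation overlaps the exons of ITGAE-207.

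Among laminins, LAMA4 was the main alpha chain and LAMC1 the main gamma chain in every library. LAMA4, an alpha chain of nerve, vessel and fat basement membranes (chromosome 6, 112107931 to 112254985), held between 75.9% and 94.6% of the summed laminin alpha TPM. It was at 176, 65.0, 131 and 24.0 TPM across nociceptor libraries 1 to 4, at 15.4, 50.7 and 92.3 TPM across mechanoreceptor libraries 1 to 3 and at 53.6, 96.2 and 24.2 TPM across proprioceptor libraries 1 to 3. LAMC1, the gamma chain of most laminins (chromosome 1, 183023420 to 183145592), held between 93.3% and 99.8% of the gamma TPM. Its TPM was 161, 78.3, 173 and 17.0, then 7.31, 5.03 and 101, then 2.25, 110.5 and 8.44. By gene-level TPM, LAMA4 thus stayed at 15.4 TPM or more in libraries where LAMC1 was between 2.25 and 8.44 TPM. This gene-level value includes short forms, which are described below. The full-length LAMA4 forms were at 4.63 and 8.59 TPM in mechanoreceptor libraries 1 and 2. They were at 2.13 and 7.86 TPM in proprioceptor libraries 1 and 3.

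The beta chains LAMB1 and LAMB2 shared the beta class. LAMB1 (chromosome 7, 107923799 to 108003161) was at 112, 54.2, 151 and 12.2 TPM across the nociceptor, 6.49, 8.73 and 55.9 TPM across the mechanoreceptor and 4.44, 59.0 and 10.4 TPM across the proprioceptor libraries. LAMB2, a beta chain of synaptic and Schwann cell laminins (chromosome 3, 49121114 to 49133050), was at 63.5, 77.3, 177 and 25.4 TPM, at 1.73, 1.87 and 82.0 TPM and at 3.46, 100.2 and 4.08 TPM. LAMB1 held between 32.0% and 79.3% of the beta class and LAMB2 between 17.0% and 66.9%. LAMB1 was above LAMB2 in nociceptor library 1, mechanoreceptor libraries 1 and 2 and proprioceptor libraries 1 and 3, and below it in the other 5.

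LAMA2, the alpha chain of Schwann cell and muscle basement membranes, was at 11.6, 3.23, 22.5 and 2.39 TPM, at 1.24, 1.29 and 3.77 TPM and at 1.30, 4.44 and 1.79 TPM. LAMA5, an alpha chain of many epithelia and vessels, was at 4.19, 3.91, 12.6 and 4.83 TPM, at 1.10, 1.37 and 4.59 TPM and at 1.04, 6.46 and 2.65 TPM. For both genes nociceptor library 3 was the highest. LAMA1, an early embryonic chain, reached 2.47 TPM in nociceptor library 1 and stayed under 1 TPM in the other 9 libraries. LAMB3, a chain of the skin laminin, exceeded 1 TPM in mechanoreceptor library 3 alone, at 2.15 TPM.

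Among transcripts matched to the annotation, the leading one of most described members was a protein-coding form, with ITGA1, ITGAE, LAMA1 and LAMA5 as the exceptions among the 12 integrins and 8 laminins of highest level, and how much of the gene it held varied. LAMC1-201 held between 73.2% and 95.1% of LAMC1 TPM and ITGA3-202 between 47.3% and 92.2% of ITGA3. ITGA5-201 held between 57.4% and 100% of ITGA5 and ITGB8-201 between 36.1% and 96.7% of ITGB8. The leading forms of the beta laminins were less constant, at 5.50% to 81.0% of LAMB1 for LAMB1-201 and 6.81% to 63.7% of LAMB2 for LAMB2-201. Matched transcripts held only 14.9% to 55.4% of ITGA7 TPM, 22.8% to 87.9% of ITGAV and 38.7% to 72.4% of LAMA2. They held 46.7% to 91.6% of LAMB1 and 48.7% to 95.5% of ITGA1. An unmatched transcript may therefore lead in these 5 genes. The deposited estimates carry no error for these shares.

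LAMA4 has transcript forms of very different length whose balance differed between libraries, and the bases that set its short form apart are shown for that reason. LAMA4-203 and LAMA4-209 have 2 exons at the 5′ end of the gene and a coding sequence for 120 residues, against 1816 residues for the full-length LAMA4-219 of 39 exons. The run below is the 165 coding bases of LAMA4-203 that lie outside the exons of LAMA4-219 (chr6:112253791-112253955, minus strand, GRCh38, GENCODE 29, all in lower case).
LAMA4 short form, coding bases: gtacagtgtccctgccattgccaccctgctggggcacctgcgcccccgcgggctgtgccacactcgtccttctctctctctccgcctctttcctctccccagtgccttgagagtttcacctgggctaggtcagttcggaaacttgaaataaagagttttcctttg

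The short forms together were at 2.75, 9.70, 1.79 and 4.31 TPM across nociceptor libraries 1 to 4, at 5.77, 28.98 and 8.12 TPM across mechanoreceptor libraries 1 to 3 and at 36.5, 6.45 and 8.42 TPM across proprioceptor libraries 1 to 3. The 4 full-length forms were at 91.5, 30.3, 85.2 and 7.38 TPM, at 4.63, 8.59 and 50.6 TPM and at 2.13, 54.6 and 7.86 TPM. In mechanoreceptor library 2 and proprioceptor library 1 the short forms thus made up most of the LAMA4 level, at 77.1% and 94.5% of short and full-length forms. In nociceptor libraries 1 and 3 they made up 2.91% and 2.06%. TPM divides by length and so raises short transcripts: by estimated counts the short forms held between 0.146% and 55.6%, on 17 to 460 counts against 367 to 16436 for the full-length forms. Proprioceptor library 1 was the highest for this share on both scales.

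**Figure D3:**
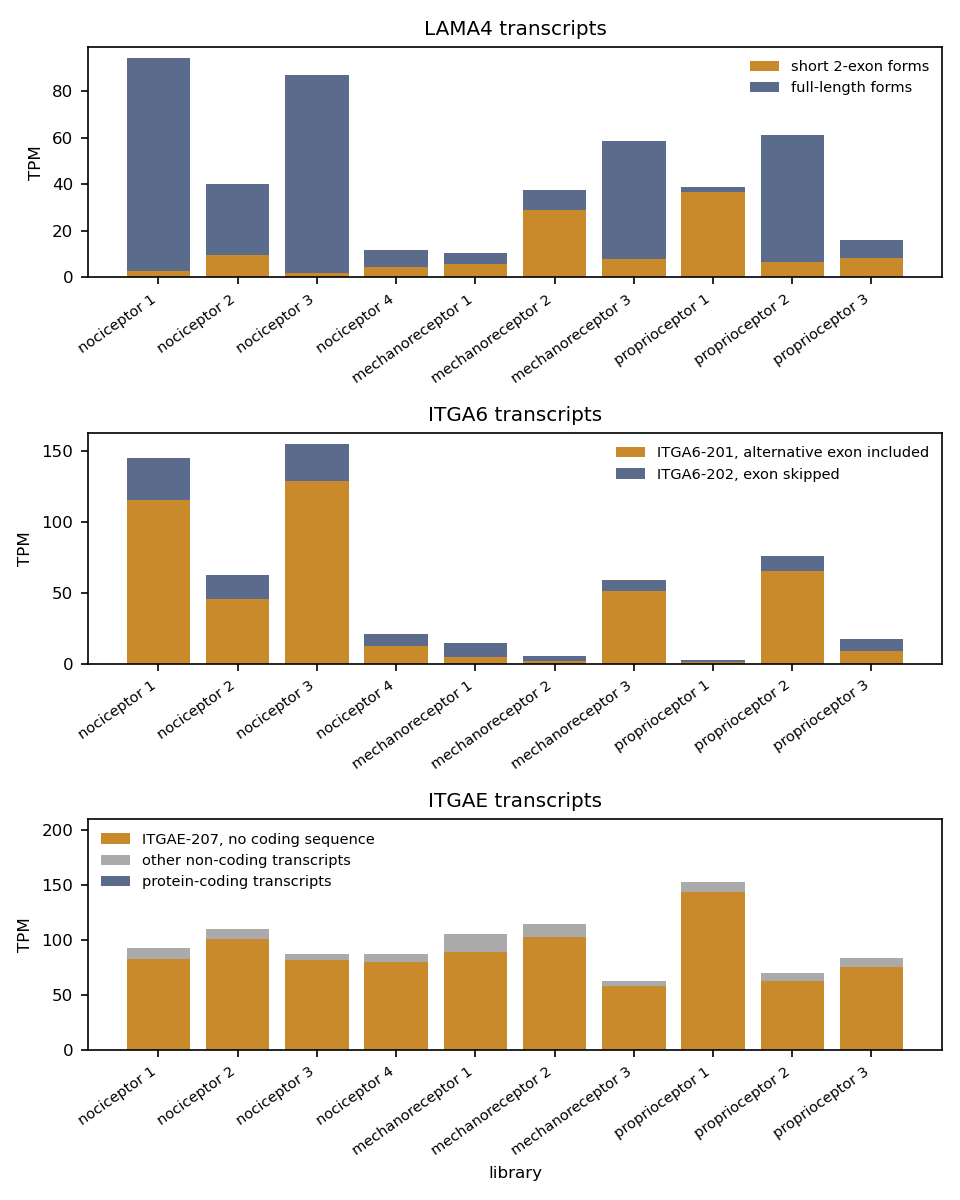
Deposited TPM of transcript forms in each library, as stacked bars from 0: short and full-length LAMA4 forms (top), ITGA6-201 with the alternative exon and ITGA6-202 without it (middle), and ITGAE-207, other non-coding and protein-coding ITGAE transcripts (bottom). The short forms are the larger LAMA4 block in mechanoreceptor libraries 1 and 2 and proprioceptor libraries 1 and 3, and no protein-coding block is visible for ITGAE.

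LAMB1 and LAMC1 ranked the 10 libraries in the same order but for mechanoreceptor libraries 1 and 2, and the 250 bases before their starts are shown with the GC box in capitals. The GC box was searched as GGGCGG on both strands (CCGCCC is the same box on the other strand), and boxes may overlap. The sequences are from RefSeq on GRCh38.p14, for LAMB1 at chr7:108003162-108003411 on the minus strand and for LAMC1 at chr1:183023170-183023419 on the plus strand.
LAMB1 promoter: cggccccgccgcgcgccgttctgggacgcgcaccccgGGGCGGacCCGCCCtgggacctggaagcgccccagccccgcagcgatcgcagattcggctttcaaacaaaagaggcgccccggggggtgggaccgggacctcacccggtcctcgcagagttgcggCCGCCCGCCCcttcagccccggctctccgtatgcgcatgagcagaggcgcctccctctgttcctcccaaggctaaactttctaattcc
LAMC1 promoter: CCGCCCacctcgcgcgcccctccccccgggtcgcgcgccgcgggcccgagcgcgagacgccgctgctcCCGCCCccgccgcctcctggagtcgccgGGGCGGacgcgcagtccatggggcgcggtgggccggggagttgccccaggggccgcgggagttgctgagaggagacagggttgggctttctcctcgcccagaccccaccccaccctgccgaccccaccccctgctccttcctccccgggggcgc

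LAMB1 held 4 GC boxes in this stretch and LAMC1 held 3. In windows of 300 bases, 14 of the 26 members with a RefSeq promoter (53.8%) held the box, against 44.6% of 27305 promoters. The CCAAT box, searched as CCAAT, was in 4 of the 26 members and in 35.7% of all promoters. The TATA box, searched as TATAAA, was in 1 member and 11.95% of all, and the AP-1 site, searched as TGANTCA, was in 2 members and 7.76% of all. These matches describe letters in the windows and nothing about binding.

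The comparison of protocols asks whether the choice of protocol changed these genes. No integrin or laminin gene passed an adjusted p of 0.05 in edgeR's quasi-likelihood test in any of the 3 pairwise comparisons or in the test across all 3 protocols. Neither did any of the 16130 genes tested (0%). The test covered 33 members, and the 5 others (ITGAD, ITGAM, ITGB7, LAMB4 and LAMC3) had too few reads, with at most 13 counts in a library. DESeq2 called 0 members as well, but 0.562%, 0.127% and 0.0041% of all genes in the mechanoreceptor-nociceptor, proprioceptor-nociceptor and proprioceptor-mechanoreceptor comparisons and 0.357% across the protocols. Limma on log2 TPM called 0 members and, without a filter on low values, at most 3 of 24572 genes. A fit that weights libraries by how well they follow their group (voom with library weights) called 14 members between the mechanoreceptor and nociceptor protocols, where it called 27.0% of all genes, and 10 across the protocols, where it called 13.8% of all. ITGA9 was higher in mechanoreceptor libraries there, by 1.78 ± 0.30 (log2, SE) with an adjusted p of 0.0116, and the other 13, among them ITGB1 at -1.74 ± 0.36 with an adjusted p of 0.0120, were lower. It called 0 members in the other 2 comparisons. In that fit the weights ran from 0.310 for proprioceptor library 1 to 3.77 for nociceptor library 2.

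Mechanoreceptor libraries were lower than nociceptor libraries for most members, without any passing the test. The log2 fold change was below 0 for 25 of the 33 members, against 49.9% of all genes, and its median was -1.37. At an unadjusted p under 0.05 there were 4 members, against 8.18% of all genes, of which 1 was higher (3.59% of all genes) and 3 were lower (4.59% of all genes). The 3 lower ones were LAMA2 at -3.03 ± 1.31 (SE), ITGA4 at -2.05 ± 0.77 and ITGB1 at -1.42 ± 0.57, each with an edgeR adjusted p of 0.598. ITGB6, an epithelial partner of ITGAV, was the higher one, at 2.50 ± 0.83 with the same adjusted p. Its counts were 4, 6, 2 and 1 across the nociceptor, 22, 14 and 24 across the mechanoreceptor and 5, 17 and 1 across the proprioceptor libraries. The mechanoreceptor libraries did not overlap the nociceptor libraries for this gene, and its highest level was 0.391 TPM. The 6 epithelium markers, none at 0, summed to 32.6 to 218 TPM in nociceptor, 71.6 to 98.9 TPM in mechanoreceptor and 64.5 to 95.5 TPM in proprioceptor libraries, and their part in the result was not tested. The count of 4 became 2 without nociceptor library 1 (7.0% of all genes), 1 without mechanoreceptor library 1 (3.71%) or 2 (2.94%), and 17 without mechanoreceptor library 3 (14.6%). The median log2 fold change was -0.87 without mechanoreceptor library 1, -0.92 without library 2 and -1.90 without library 3 of that protocol. The laminin-binding chain ITGA6 was at -2.01 ± 1.21, and of the main laminin chains LAMA4 was at -1.37 ± 0.97, LAMB1 at -1.83 ± 1.19 and LAMC1 at -1.57 ± 1.34, with edgeR adjusted p between 0.632 and 0.720. Leaving out 1 library at a time gave -3.99 to -1.52 for ITGA6, -2.94 to -0.95 for LAMA4, -3.67 to -1.10 for LAMB1 and -4.49 to -1.05 for LAMC1, so single libraries moved these values by over 1.5 times.

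Proprioceptor libraries were compared with the same nociceptor libraries, so the 2 comparisons share them. The log2 fold change was below 0 for 25 of the 33 members, against 47.8% of all genes, with a median of -1.26. At an unadjusted p under 0.05 there were 4 members, all lower, against 6.19% of all genes in either direction (3.05% higher and 3.14% lower). LAMA2 was at -2.87 ± 1.30, ITGA4 at -2.11 ± 0.77, ITGA11 at -1.74 ± 0.74 and ITGB1 at -1.71 ± 0.58, each with an edgeR adjusted p of 0.665. The count became 2 without nociceptor library 1 (3.83% of all genes) or 3 (3.04%) or proprioceptor library 3 (3.63%), 1 without proprioceptor library 1 (4.95%), and 19 without proprioceptor library 2 (16.3%). The median log2 fold change was -0.97 without proprioceptor library 1, -2.29 without library 2 and -0.93 without library 3 of that protocol. The 6 pan-neuronal markers were all higher in proprioceptor libraries, with a median of 1.05 and 4 at an unadjusted p under 0.05, while all 7 glia markers (median -1.76) and all 9 tested mesenchyme markers (median -2.39) were lower; none passed an edgeR adjusted p of 0.05, and their part in the members' values was not tested. ITGA6 was at -1.999 ± 1.21, LAMA4 at -1.30 ± 0.97, LAMB1 at -1.78 ± 1.19 and LAMC1 at -1.59 ± 1.34, with edgeR adjusted p between 0.666 and 0.701. Leaving out 1 library at a time gave -3.80 to -1.50 for ITGA6, -2.60 to -0.91 for LAMA4, -3.73 to -1.04 for LAMB1 and -4.30 to -1.10 for LAMC1, again by over 1.5 times.

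Proprioceptor and mechanoreceptor libraries differed by a median log2 fold change of 0.05, with 15 of the 33 members lower in proprioceptor libraries, against 46.3% of all genes. This direction rested on single libraries: the median was 1.03 without mechanoreceptor library 3 (28 of 35 members higher), -1.45 without proprioceptor library 2 (6 of 34 higher), -0.35 and -0.36 without mechanoreceptor libraries 1 and 2, and 0.47 and 0.45 without proprioceptor libraries 1 and 3. In this comparison 2 members were at an unadjusted p under 0.05, against 1.49% of all genes (0.744% higher and 0.750% lower). ITGA9 was lower in proprioceptor libraries, at -1.36 ± 0.52, and the libraries of the 2 protocols did not overlap. ITGAX, a leukocyte integrin with 1 to 15 counts per library, was at 1.97 ± 0.81. The edgeR adjusted p was 1.00 for both. The count became 1 without nociceptor library 2 or 4, mechanoreceptor library 1 or 2 or proprioceptor library 1 (0.707% to 2.03% of all genes), 0 without proprioceptor library 3 (1.32%), 4 without proprioceptor library 2 (4.44%) and 7 without mechanoreceptor library 3 (4.28%). Across all 3 protocols, ITGA4, ITGB1, ITGB6 and LAMA2 were at an unadjusted p under 0.05, which is 4 members against 5.73% of all genes, each with an edgeR adjusted p of 0.813. That count became 1 without nociceptor library 1 (4.13% of all genes), 2 without nociceptor library 3, mechanoreceptor library 1 or 2 or proprioceptor library 1 (2.92% to 6.33%), 15 without mechanoreceptor library 3 (11.2%) and 10 without proprioceptor library 2 (12.3%).

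Libraries of 1 protocol differed widely from each other. Many members ran with the mean levels of the mesenchyme, glia and epithelium markers and against that of the pan-neuronal markers. Nociceptor library 4 was the lowest of its protocol for 21 of the 33 tested members, against 28.1% of all genes. Mechanoreceptor library 3 was the highest of its protocol for 23 members, against 37.5% of all genes. Proprioceptor library 2 was the highest of its protocol for 26 members, against 52.7% of all genes. All 3 statements held for 18 members, against 15.7% of all genes: ITGA1, ITGA3, ITGA4, ITGA5, ITGA6, ITGAV, ITGB1, ITGB3, ITGB4, ITGB5, ITGB8, LAMA1, LAMA2, LAMA4, LAMB1, LAMB2, LAMB3 and LAMC1. These counts were made after the values were seen and are a description.

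The size of this variation was read from a fit with the mesenchyme level as a covariate beside the protocol. The slope is the log2 change of a gene per unit of mesenchyme level (log2 CPM) within protocols. Its median was 0.57 over the 33 members and -0.01 over all 16130 genes. A slope above 0.5 was found for 18 members (54.5%) and for 9.39% of all genes. ITGB8 had the steepest, at 1.88 ± 0.13 (SE), followed by ITGA5 at 1.62 ± 0.16, LAMB2 at 1.44 ± 0.19, ITGB4 at 1.27 ± 0.19, ITGAV at 1.24 ± 0.12 and LAMC1 at 1.16 ± 0.11. The main chains ITGA6, at 0.94 ± 0.15, LAMA4, at 0.80 ± 0.12, and ITGB1, at 0.39 ± 0.10, were less steep. Near 0 or below were ITGA7 at 0.07 ± 0.13, ITGA11 at 0.05 ± 0.17, ITGA9 at -0.16 ± 0.11, ITGAE at -0.22 ± 0.13 and ITGA8 at -0.41 ± 0.22. These slopes describe 10 libraries and carry no test, and glia and epithelium markers moved with mesenchyme markers, so their parts cannot be told apart.

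**Figure D4:**
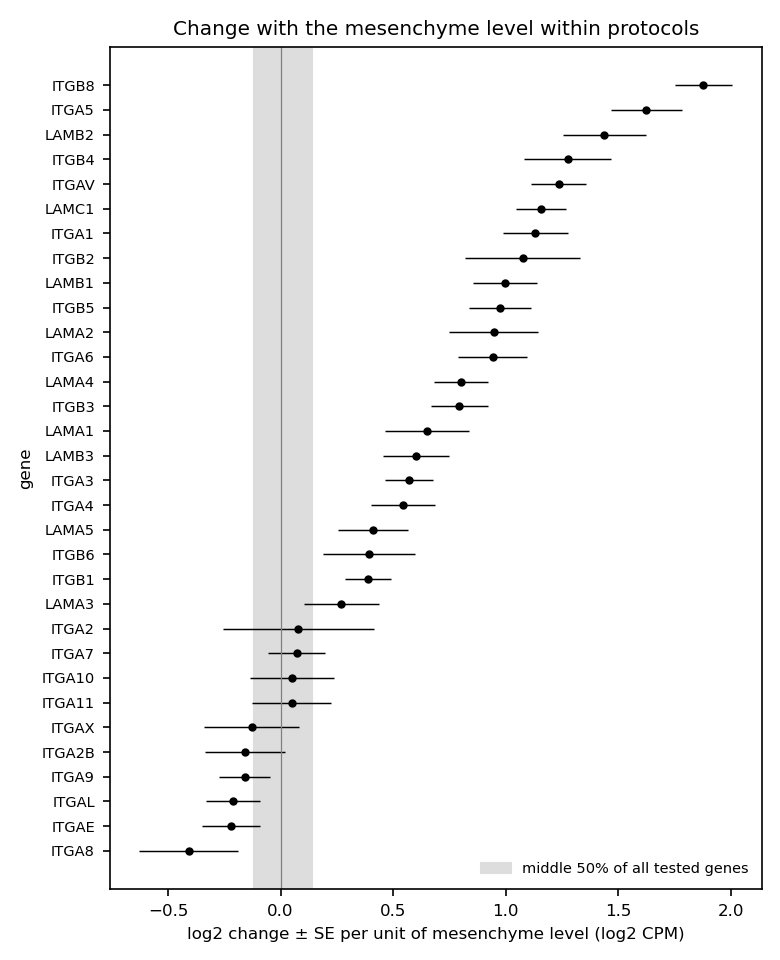
Slope of 32 of the 33 tested members on the mesenchyme level within protocols (points, log2 change per unit of log2 CPM, lines ± 1 SE); the grey band is the middle 50% of all 16130 tested genes. Slopes run from -0.41 for ITGA8 to 1.88 for ITGB8, and most members lie to the right of the band.

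With the mesenchyme level in the fit, the median log2 fold change of the members against nociceptor libraries was 0.03 for mechanoreceptor and 0.03 for proprioceptor libraries. ITGB1 was then at -0.33 ± 0.48 and -0.82 ± 0.45, ITGA4 at -0.36 ± 0.70 and -0.76 ± 0.64, and LAMA2 at -1.01 ± 0.90 and -0.78 ± 0.88 in that order. ITGA6 was at 0.071 ± 0.70 and -0.15 ± 0.66, LAMA4 at 0.47 ± 0.54 and 0.45 ± 0.52, LAMB1 at 0.50 ± 0.65 and 0.16 ± 0.60 and LAMC1 at 0.45 ± 0.45 and 0.18 ± 0.43. The sign of these chains was thus turned in both comparisons, except for ITGA6 in proprioceptor libraries. ITGA11 stayed at -1.66 ± 0.74 between proprioceptor and nociceptor libraries, ITGA9 at -1.29 ± 0.47 between proprioceptor and mechanoreceptor libraries and ITGB6 at 3.65 ± 0.94 between mechanoreceptor and nociceptor libraries. No member passed an adjusted p of 0.05 in this fit by edgeR, and 1, 3 and 3 members were at an unadjusted p under 0.05 in the 3 pairwise comparisons, against 3.55%, 2.31% and 2.88% of all genes.

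**Figure D5:**
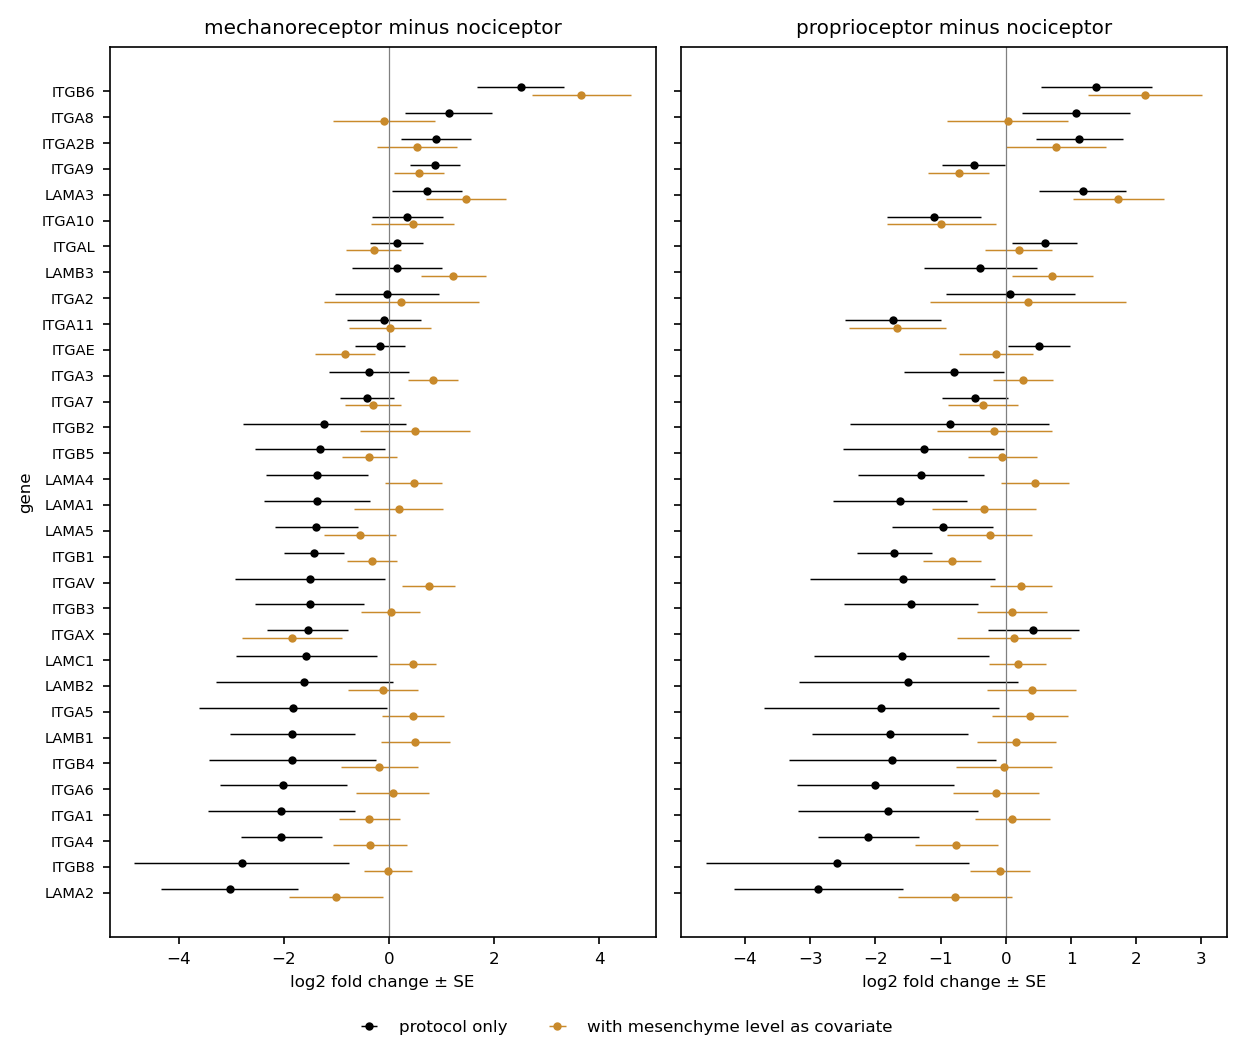
Log2 fold change ± SE of 32 of the 33 tested members against nociceptor libraries, for mechanoreceptor (left) and proprioceptor libraries (right), from the fit on protocol alone (black) and from the fit that adds the mesenchyme covariate (orange). Over the 33 members the medians are -1.37 and -1.26 for the fit in black and 0.03 and 0.03 for the fit in orange.

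Genes that work with integrins and laminins were read from 5 lists, and none of their genes passed an adjusted p of 0.05 in any comparison by edgeR. Of 25 ligands other than laminins, 23 were tested. In each comparison with nociceptor libraries 17 were lower, against 49.9% of all genes for mechanoreceptor and 47.8% for proprioceptor libraries. The medians of the 23 were -1.69 for mechanoreceptor and -1.56 for proprioceptor libraries. The list shares COL1A1, COL1A2, COL3A1 and POSTN with the mesenchyme markers. COL1A1, a chain of fibroblast collagen, ran from 1.77 to 1984 TPM and COL1A2 from 2.05 to 1510.0 TPM. SPP1 (osteopontin) was at 94.8, 262, 118 and 5.23 TPM across the nociceptor, 3.30, 6.78 and 17.3 TPM across the mechanoreceptor and 6.47, 25.01 and 3.16 TPM across the proprioceptor libraries. The log2 fold change of SPP1 was -3.85 ± 1.17 and -3.34 ± 1.14 in the 2 comparisons (edgeR adjusted p = 0.598 and 0.665). NPNT (nephronectin, the ligand of ITGA8) was at 32.0 TPM in proprioceptor library 3 and between 0.671 and 2.42 TPM in the other 9 libraries. Its log2 fold change of 3.94 ± 0.95 between proprioceptor and nociceptor libraries (edgeR adjusted p = 0.665, DESeq2 adjusted p = 0.00817) thus came with 1 library far above the others, and it was 1.38 ± 0.59 (edgeR adjusted p = 0.855) without that library.

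All 12 basement membrane partners of laminins were lower in both comparisons with nociceptor libraries, against 49.9% and 47.8% of all genes. Their medians were -1.67 and -1.39. Their slopes on the mesenchyme level ran from 0.05 for SMOC1 to 1.49 for HSPG2, and the part of that level in these values was not tested. COL15A1, a collagen of basement membrane zones, ran from 0.195 to 85.1 TPM, PXDN (peroxidasin, which crosslinks collagen IV) from 2.43 to 62.3 TPM and NID2 (nidogen, which links laminin to collagen IV) from 0.817 to 129 TPM. FBLN1, a fibulin, was at -2.17 ± 0.73 between mechanoreceptor and nociceptor libraries (edgeR adjusted p = 0.598). The highest value of COL15A1 lay in mechanoreceptor library 3, and those of PXDN and NID2 in nociceptor library 3.

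The 11 laminin receptors other than integrins had medians of -0.51 and -0.72 against nociceptor libraries. RPSA, a ribosomal protein also described as a laminin receptor, ran from 85.4 to 294 TPM. CD151, a tetraspanin that binds laminin-receptor integrins, ran from 43.2 to 357 TPM. SDC2, a heparan sulfate syndecan, was at 348, 158, 171 and 148 TPM, at 193, 95.9 and 205 TPM and at 24.4, 112 and 22.1 TPM. Proprioceptor libraries 1 and 3 were thus the lowest for SDC2, with a log2 fold change of -2.05 ± 0.53 between proprioceptor and nociceptor libraries (edgeR adjusted p = 0.665). SDC1 was at -1.44 ± 0.56 between mechanoreceptor and nociceptor libraries (adjusted p = 0.598).

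Inside the cell, 21 of 23 activators and adaptors were tested. In each comparison with nociceptor libraries 18 were lower, against 49.9% and 47.8% of all genes, with medians of -0.75 and -0.90. FERMT2 (kindlin-2, which activates integrins with talin) was at 79.0, 70.9, 79.3 and 81.4 TPM across the nociceptor, 48.0, 39.2 and 54.0 TPM across the mechanoreceptor and 30.4, 61.0 and 48.3 TPM across the proprioceptor libraries. All 4 nociceptor libraries lay above the 6 others. The log2 fold changes of FERMT2 were -0.998 ± 0.28 and -1.01 ± 0.28 (edgeR adjusted p = 0.598 and 0.665). Nociceptor library 4, which was low for the mesenchyme markers, was the highest for FERMT2. FERMT3, the kindlin of blood cells, was at -1.75 ± 0.56 between mechanoreceptor and nociceptor libraries at no more than 2.28 TPM. RAP1B, a small GTPase that activates integrins, ran from 155 to 710.1 TPM and ILK, an adaptor at the integrin tail, from 113 to 241 TPM.

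Of 13 signalling kinases and brakes, 12 were tested, with medians of -0.17 and -0.38. FYN, a Src family kinase, ran from 101 to 361 TPM and ITGB1BP1, which binds the ITGB1 tail, from 115 to 233 TPM. ITGB3BP, known also as a centromere protein, was at 68.9, 67.2, 84.7 and 17.6 TPM, at 18.8, 7.05 and 31.5 TPM and at 10.8, 35.1 and 12.9 TPM. Its log2 fold changes were -1.55 ± 0.54 and -1.25 ± 0.53 (edgeR adjusted p = 0.598 and 0.665). DOK1, which competes with talin, ran from 5.82 to 53.4 TPM.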

How the data were processed

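RNA was extracted with Trizol and made into cDNA with the Clontech Ultra Low v4 kit and into libraries with NexteraXT, per the labels' protocols. Per the submitters' processing notes, kallisto 0.50.1 and GRCh38.p14 were used. The authors deposited estimated counts per gene and per transcript, rounded to whole numbers, and TPM per gene and per transcript; how transcripts were summed to genes is not given in the sources used here. Reads that fit several transcripts are divided by estimation, and the values carry no error for it. A gene entry with a blank name, between 0.733% and 1.66% of the counts, was left out.

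Groups came from the titles. Counts were tested with edgeR 4.0.16 (R 4.3.3): filterByExpr kept 16130 genes, TMM scaled libraries, and 1 quasi-likelihood model with a mean per protocol used all 10 libraries, two-sided, with Benjamini-Hochberg adjustment over all tested genes and a threshold of 0.05. DESeq2 1.42.0 and limma 3.58.1 (voom with library weights, and log2 TPM with a pseudocount of 1 or 0.1) were alternatives, with other scaling, no filter, only the groups compared, the mesenchyme level as a covariate, the replicate block and each library left out. The count script was tested on simulated data. Marker levels are the mean log2 CPM with a prior count of 2. Libraries of 1 protocol differed far beyond sampling noise, so none was counted as a copy.

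Transcripts were matched to GENCODE 29 by identifier (78.5% of 207133). Coordinates and promoters came from RefSeq. Genes named are the 12 integrins and 8 laminins of highest mean TPM, in each contrast up to 6 members at an unadjusted p under 0.05, the leukocyte and platelet integrins at 1 TPM, and of each list the 2 of highest mean TPM and the 2 of smallest p. ITGB4 and ITGA8 were named after their values were seen. Members, lists and this rule were chosen with earlier results of these data known. The values of 1 member are not reported here; it stays in the counts over members.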

Additional observations from a re-analysis of the deposited data

Results flagged for a closer look

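LAMA5 was at 12.6 TPM in nociceptor library 3, and this value stood apart from the other 3 nociceptor libraries, which lay between 3.91 and 4.83 TPM, by more than the gap allowed for a group of 4. ITGAL was at 0.244 TPM in the same library, below the other 3, which lay between 1.17 and 1.36 TPM. Chance sets a sample apart in this way in about 1 in 20 groups, and 27 members were examined. These flags do not cover every wide gap: LAMB2, at 1.73, 1.87 and 82.0 TPM across the mechanoreceptor libraries, is not among them.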

How the results depend on the processing

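No member passed an adjusted p of 0.05 in any comparison by edgeR. This held with RLE scaling, without the filter, with only the groups compared, with the mesenchyme level, with the replicate block and without any 1 library. No member passed by DESeq2, which called 137, 31 and 1 genes in all in the pairwise comparisons and 87 across the protocols. Limma on log2 TPM called no member either. Voom with library weights called 14 members between mechanoreceptor and nociceptor libraries (27.0% of all genes) and 10 across the protocols (13.8%). At an unadjusted p under 0.05 the count between mechanoreceptor and nociceptor libraries was 4, and it was 1 with the mesenchyme level (3.55% of all genes), 1 by limma without a filter (6.99%) and 25 by voom (40.1%). Between proprioceptor and nociceptor libraries it was 4, and 1, 1 and 2 by limma (pseudocount 1, pseudocount 0.1 and no filter; 5.70%, 5.64% and 4.29% of all genes) and 12 by voom (24.7%). Across the protocols it was 4, and 1 with the mesenchyme level (2.86%), 2, 2 and 1 by limma in that order (4.91%, 4.66% and 4.07%) and 15 by voom (33.4%). Leaving out each library in turn gave 1 to 17 members between mechanoreceptor and nociceptor libraries (2.94% to 16.1% of all genes). It gave 1 to 19 between proprioceptor and nociceptor libraries (3.04% to 16.3%). Between proprioceptor and mechanoreceptor libraries it gave 0 to 7 (0.707% to 4.44%), and across the protocols 1 to 15 (2.92% to 13.2%). The cause was not tested.

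Among single genes, 30 of 437 log2 fold changes under the other settings had the opposite sign. With the mesenchyme level, mechanoreceptor against nociceptor, these were ITGA6 at 0.071, ITGA3 at 0.83, ITGA5 at 0.45, ITGAV at 0.75, ITGA11 at 0.019, LAMA4 at 0.47, LAMC1 at 0.45, LAMB1 at 0.50 and LAMA1 at 0.18. Proprioceptor against nociceptor, they were ITGAE at -0.15, ITGA3 at 0.26, ITGA5 at 0.37, ITGAV at 0.23, ITGA1 at 0.10, LAMA4 at 0.45, LAMC1 at 0.18, LAMB2 at 0.40, LAMB1 at 0.16 and LAMB3 at 0.71. By voom they were ITGA7 at 0.066 and LAMB3 at -1.52 for mechanoreceptor, and ITGAE at -0.38, ITGA7 at 0.45 and ITGA9 at 0.13 for proprioceptor libraries. By limma, ITGA11 was at 0.46, 0.53 and 0.46. Leaving out 1 library gave -0.47 to 0.18 for ITGA11 and -1.44 to 0.58 for LAMB3 in mechanoreceptor, and -0.49 to 0.80 for ITGAE, -0.73 to 0.12 for ITGA9 and -1.50 to 0.044 for LAMB3 in proprioceptor libraries.

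With the replicate number as a block (replicate block), 6, 4 and 3 members were at an unadjusted p under 0.05 in the 3 pairwise comparisons (14.8%, 12.2% and 1.37% of all genes) and 4 across the protocols (10.8%), and ITGA11 at 0.65, LAMB3 at -0.15 (mechanoreceptor) and ITGA9 at 0.11 (proprioceptor against nociceptor) changed sign. The deviations of libraries from their protocol's mean did not follow the numbers. Of 9 pairs with the same number, 4 had deviations that correlated above 0.1, and 1 library correlated best with its own number. The highest correlation was 0.79, between mechanoreceptor library 3 and proprioceptor library 2, the high ones for mesenchyme markers. Such shared deviations can hide a pairing, so the check cannot say whether libraries of the same number shared a differentiation or batch. The library names run in sequence by replicate number across the protocols, but they do not say what libraries of the same number shared. There were 3 or 4 libraries a group, and the common biological coefficient of variation was 0.550. Depth limits the precision for members of few reads such as ITGB6 and ITGAX; its part in the number of calls was not tested.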
